A study of Mus musculus with 32 samples.

Results

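The proteins that make and process the amyloid precursor protein were followed at the RNA level in microglia of a tau mouse. The 9 genes described here are the precursor App and its homolog Aplp2, the beta-secretase Bace1, the gamma-secretase genes Psen2, Ncstn, Aph1a and Psenen, and the alpha-secretases Adam10 and Adam17. They were taken by name from the 18588 genes of the deposited table, and all 9 were found there. Microglia had been captured with CD11b MicroBeads from pooled forebrains of female mice, and their RNA was sequenced. The rTg4510 mice carried a transgene for human tau with the P301L mutation, driven through a tetracycline-controlled transactivator under the CaMKIIα promoter of forebrain neurons. The WT mice were littermates of the 129/FVB F1 background with neither transgene, so that effects of the transactivator and of tau cannot be told apart. Of 32 libraries, 28 were kept, namely 4 per genotype at 2 and 6 months of age and 3 per genotype at 4 and 8 months. The 4 libraries not kept were replicate 3 of both genotypes at 4 months and replicate 4 of both at 8 months, which the authors had excluded for failed RNAseq QC.

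Amyloid beta is cut out of the amyloid precursor protein in a pair of steps. BACE1, an aspartyl protease of endosomes and the Golgi, cuts outside the membrane, and gamma-secretase then cuts the remaining stub within the membrane. Gamma-secretase is a complex of a presenilin such as PSEN2, nicastrin, APH1 and PEN-2, the last of which is the product of Psenen. ADAM10 and ADAM17 cut the precursor inside the amyloid beta stretch and thereby preclude its release. In microglia the same proteases shed other membrane proteins, among them TREM2, AXL and the precursor of TNF.

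Between the genotypes, Bace1 was lower and Aplp2 and Psen2 were higher in rTg4510 microglia from 4 months on, while the App transcript itself changed by no more than 1.12 fold. At 2 months none of the 9 genes was a differentially expressed gene (DEG), defined as a false discovery rate (FDR) under 0.05 and a change above 1.5 fold in limma's linear model, beside 1.98% of all genes, and 0 of the 9 had an unadjusted p under 0.05 or passed with limma's moderated variances. At each of 4, 6 and 8 months, 3 of the 9 were DEGs, beside 13.8%, 19.8% and 15.9% of all genes. These were Aplp2 and Psen2, higher, and Bace1, lower, at each of the 3 ages, beside 9.47%, 11.3% and 10.5% of all genes higher and 4.33%, 8.54% and 5.37% lower. With the FDR alone, 4, 7 and 7 of the 9 genes passed at 4, 6 and 8 months, and 23.2%, 34.1% and 25.7% of all genes did, while at 2 months 0 of the 9 and 6.03% of all genes passed. The median log2 fold change of the 9 genes was 0.03, 0.15, 0.25 and 0.23 at 2, 4, 6 and 8 months, and that of all genes lay between -0.04 and 0.01.

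**Figure D1:**
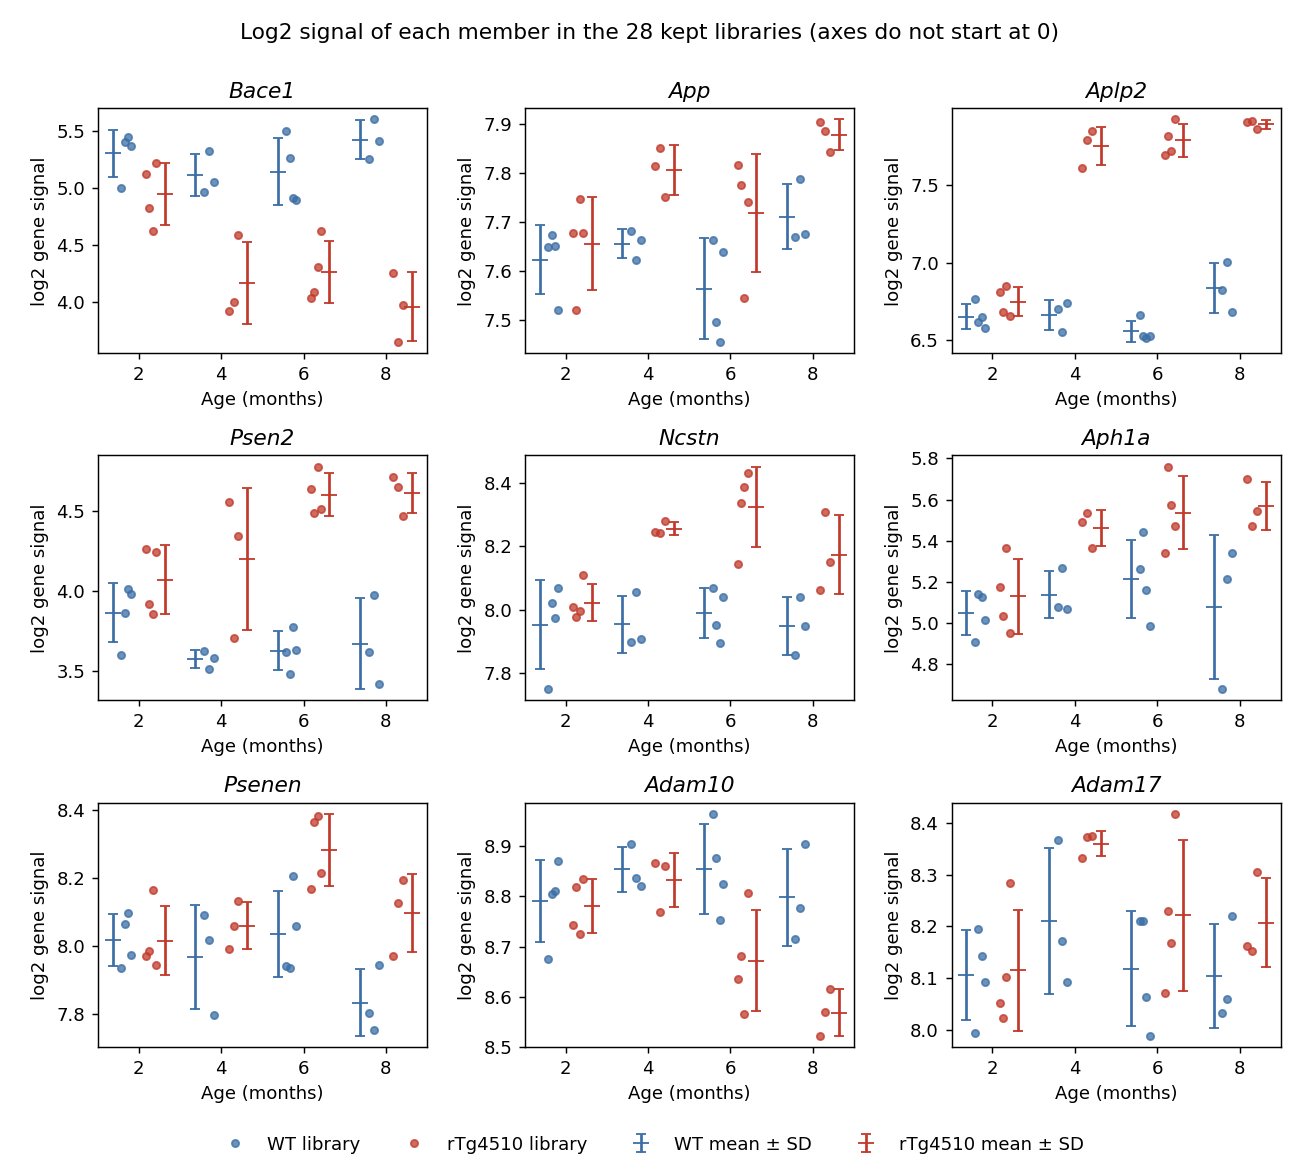
Log2 gene signal (y axis) against age in months (x axis) for each of the 9 genes, with 1 point per kept library and the mean ± SD of the 3 or 4 libraries beside it. From 4 months on, all rTg4510 libraries lie below all WT libraries of the same age for Bace1 and above them for Aplp2 and Psen2.

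Promoter stretches of the DEGs that rose, and of App for comparison, are shown because Aplp2 and Psen2 moved in the same direction. Each stretch holds the 250 bases before an annotated start of transcription, 5′ to 3′ on the strand of the gene, from RefSeq on GRCm38.p6. Of the 9 genes, 8 had such an entry, and Bace1 was not among them. The Aplp2 stretch directly adjoins the gene span given below, whereas those of Psen2 and App lie inside theirs. The bases before the outermost 5′ end of Psen2 and of App are thus not shown. Upstream and downstream compare only the listed starts of Psen2 with each other. Capitals mark matches on either strand to the GC box GGGCGG, the CCAAT box CCAAT, the E-box CACGTG and the PU box GAGGAA, and the AP-1 site TGANTCA was searched as well.
Aplp2, chr9:31211849-31212098, minus strand: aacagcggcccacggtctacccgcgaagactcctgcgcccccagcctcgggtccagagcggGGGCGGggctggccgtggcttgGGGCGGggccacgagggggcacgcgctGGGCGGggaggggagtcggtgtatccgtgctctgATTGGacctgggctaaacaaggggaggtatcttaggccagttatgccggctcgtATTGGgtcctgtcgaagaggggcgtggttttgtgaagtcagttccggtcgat
Psen2, upstream start, chr1:180256301-180256550, minus strand: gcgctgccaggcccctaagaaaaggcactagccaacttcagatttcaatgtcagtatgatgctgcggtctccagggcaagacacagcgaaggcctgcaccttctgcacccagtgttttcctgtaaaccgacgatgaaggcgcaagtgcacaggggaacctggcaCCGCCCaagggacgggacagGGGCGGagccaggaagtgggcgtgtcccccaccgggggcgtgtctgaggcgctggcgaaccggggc
Psen2, downstream start, chr1:180245951-180246200, minus strand: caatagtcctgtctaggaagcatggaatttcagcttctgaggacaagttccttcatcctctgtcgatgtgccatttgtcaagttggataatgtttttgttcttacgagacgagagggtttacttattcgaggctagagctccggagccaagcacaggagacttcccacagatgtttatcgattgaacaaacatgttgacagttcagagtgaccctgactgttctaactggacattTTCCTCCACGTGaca
App, chr16:85173708-85173957, minus strand: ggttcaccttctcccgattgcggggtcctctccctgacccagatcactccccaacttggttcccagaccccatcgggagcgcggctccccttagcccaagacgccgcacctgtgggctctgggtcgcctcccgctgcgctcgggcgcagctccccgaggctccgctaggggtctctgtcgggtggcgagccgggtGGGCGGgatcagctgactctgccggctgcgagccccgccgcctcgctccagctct
The Aplp2 stretch holds 3 GC boxes and 2 CCAAT boxes and has a GC content of 66.4%, against a median of 52.4% over all 32851 windows of the same length. The upstream Psen2 start has 2 GC boxes at 62.8% GC and the App start 1 GC box at 70.8% GC. The downstream Psen2 start has a GC content of 44.8% and holds 1 PU box directly followed by 1 E-box, without overlap. GC boxes occur in 32.7%, CCAAT boxes in 33.8%, E-boxes in 6.02%, PU boxes in 23.3% and AP-1 sites in 6.75% of all windows. No AP-1 match was present in the 4 stretches. Among the windows not printed, that of Adam10, which was lower in rTg4510, also holds 3 GC boxes and 2 CCAAT boxes, with 1 E-box. Its GC content is 74.0%. The window of Ncstn, which was higher, holds no match. A match describes the letters of the window and no bound factor.

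Bace1, on chromosome 9 (45838545 to 45862484, plus strand, GRCm38.p6), encodes the beta-secretase. At 2 months its log2 signal was 5.0, 5.40, 5.45 and 5.37 in the 4 WT libraries and 5.12, 4.82, 4.62 and 5.22 in the 4 rTg4510 libraries. The genotypes overlapped at this age, and the change of -0.36 on the log2 scale (SE 0.19, FDR = 0.358) did not pass the test. At 4 months the signal was 4.96, 5.32 and 5.05 in WT and 3.93, 4.00 and 4.58 in rTg4510. At 6 months it was 5.50, 5.26, 4.91 and 4.89 in WT and 4.04, 4.09, 4.31 and 4.62 in rTg4510. At 8 months it was 5.25, 5.60 and 5.41 in WT and 4.25, 3.65 and 3.97 in rTg4510. Every rTg4510 library was thus below every WT library of its age at 4, 6 and 8 months. The log2 fold changes were -0.94 at 4 months (SE 0.22, 1.92 fold lower, FDR = 0.00246), -0.88 at 6 months (SE 0.19, 1.84 fold lower, FDR = 0.000868) and -1.46 at 8 months (SE 0.22, 2.76 fold lower, FDR = 1.94e-05). The call at 4 months was lost (FDR = 0.0892) when only the libraries of that age were fitted.

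Ordered by group mean, Bace1 ran from 3.96 ± 0.30 (SD, n = 3) in rTg4510 at 8 months through the means of 4 months (4.17 ± 0.36, n = 3) and 6 months (4.26 ± 0.27, n = 4) to that of 2 months (4.94 ± 0.27, n = 4). The WT groups followed, namely those of 4 months (5.11 ± 0.19, n = 3), 6 months (5.14 ± 0.29, n = 4), 2 months (5.30 ± 0.21, n = 4) and 8 months (5.42 ± 0.17, n = 3). Neighbouring groups in this order overlapped except for rTg4510 at 6 and at 2 months, whose nearest libraries both read 4.62. Within rTg4510, Bace1 was lower than at 2 months by a log2 fold change of -0.77 at 4 months (SE 0.20, FDR = 0.0113), -0.68 at 6 months (SE 0.19, FDR = 0.00934) and -0.99 at 8 months (SE 0.20, FDR = 0.00108). The call at 4 months was lost without rTg4510 replicate 1 (-0.65) or replicate 2 (-0.69) of 4 months, and the calls at 4 and 6 months when only the groups compared were fitted. The genotype effect differed from that at 2 months by -1.10 at 8 months (SE 0.28, FDR = 0.0152). With the replicate number as a block this FDR was 0.0932, with all 32 libraries 0.0762 and without rTg4510 replicate 2 of 8 months 0.0593. The differences at 4 months (-0.58, SE 0.28, FDR = 0.266) and 6 months (-0.52, SE 0.26, FDR = 0.233) did not pass the test.

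Bace1 is strongly expressed in neurons, and neuron markers were lower in the same groups. Of 10 neuron markers 5 were in the table, and their summed signal (log2 of the summed linear values) at 4 to 8 months was 6.12 to 7.37 over the 10 WT libraries and 5.25 to 6.33 over the 10 rTg4510 libraries. At 2 months it was 6.12 to 7.10 in WT and 6.09 to 6.58 in rTg4510. Of the 5, Snap25, a synaptic vesicle fusion protein, was a DEG at 6 months (log2 fold change -1.42, SE 0.46, FDR = 0.0199) and no neuron marker was a DEG at 2, 4 or 8 months. Syt1 and Nefm were within 1 log2 unit of the lowest value of the library in 11 and 13 of the 28 libraries. As a description, Bace1 and the summed neuron markers had a Pearson's r of 0.61 over the 28 libraries, a value that holds the genotype difference itself. Their deviations from their group means had an r of -0.16 over the same libraries, which share the marker genes and the scaling. The 7 astrocyte markers summed to 10.2 to 11.6 in WT and 9.51 to 10.2 in rTg4510 at 4 to 8 months, and the 6 neutrophil markers to 8.51 to 9.64 and 6.75 to 8.39. Among the astrocyte markers, Gfap, for an intermediate filament, was a higher DEG at 6 and 8 months (1.52 and 1.80). At these ages the water channel gene Aqp4 (-1.22 and -1.38) and the glutamate transporter gene Slc1a3 (-0.66 and -0.71) were lower DEGs, as was Slc1a2 at 8 months (-2.14, FDR = 0.00855). The 6 endothelial markers summed to 6.95 to 8.73 in WT and 6.97 to 8.12 in rTg4510 at 4 to 8 months. Of these, Pecam1 was a lower DEG (-1.35, -2.12 and -2.04) and Flt1 a higher DEG (0.98, 1.89 and 1.17) at 4, 6 and 8 months, and Cdh5 a lower DEG at 6 months (-0.86). The 10 microglia markers, all measured, summed to 14.8 to 15.2 in WT and 14.5 to 14.9 in rTg4510 at 4 to 8 months. At each of these ages every rTg4510 library had a lower sum than every WT library. At 2 months the sum was 15.0 to 15.3 in WT and 14.8 to 15.0 in rTg4510. Of these markers 1, 2, 3 and 3, in the order of the ages, were DEGs that were lower. The part of other cells in the level of Bace1 was not tested, and in RNA from many cells fewer cells of a type cannot be told apart from less RNA per cell.

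**Figure D2:**
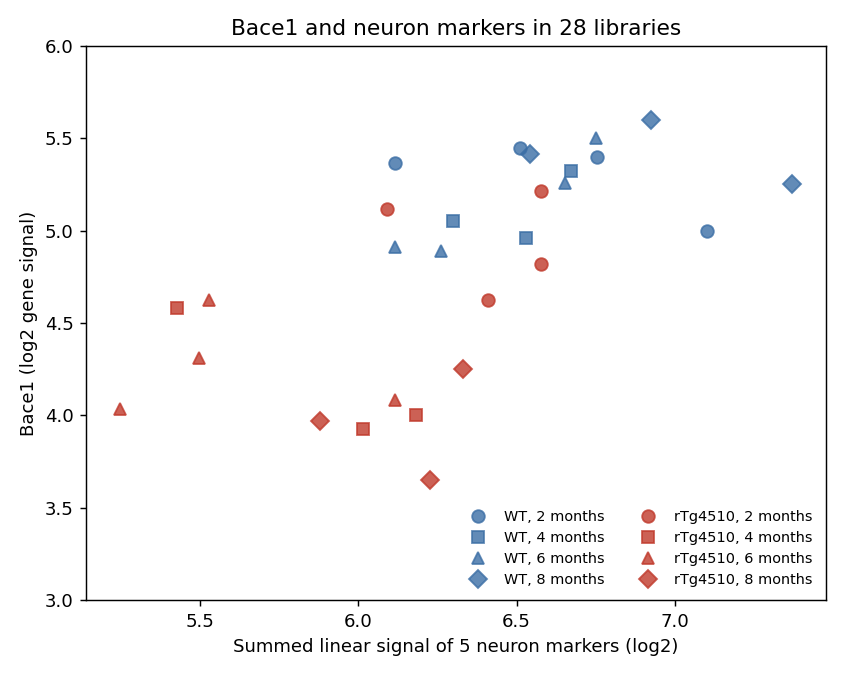
Bace1 (y axis, log2 gene signal) against the summed signal of 5 neuron markers (x axis, log2 of the sum) in the 28 kept libraries, with colour for genotype and shape for age. The rTg4510 libraries of 4 to 8 months lie lowest in Bace1, at 3.65 to 4.62, with marker sums of 5.25 to 6.33, and some WT libraries with sums near 6.12 have Bace1 signals above all of them.

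The exons of Bace1 share bases with genes on the opposite strand, and use of strand in counting is not stated. Rnf214, a gene for a RING finger protein, overlaps 975 exonic bases, which are 15.4% of those of Bace1. Rnf214 itself was lower in rTg4510, by a log2 fold change of -0.51 at 4 months (SE 0.10, FDR = 0.000448), -0.33 at 6 months (SE 0.08, FDR = 0.00471) and -0.42 at 8 months (SE 0.10, FDR = 0.00257). Reads from the shared bases cannot be assigned to either gene, and the changes of Rnf214 remained under 1.5 fold. Gm49338, which was not analysed here, overlaps another 951 exonic bases of Bace1.

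Aplp2, on chromosome 9 (31149557 to 31211848, minus strand), encodes a homolog of the amyloid precursor protein that is cut by the same secretases but has no amyloid beta sequence. At 2 months its log2 signal was 6.77, 6.61, 6.65 and 6.58 in WT and 6.81, 6.68, 6.85 and 6.65 in rTg4510. The genotypes overlapped, and their means differed by 0.10 (SE 0.07, FDR = 0.569). At 4 months the signal was 6.70, 6.55 and 6.74 in WT and 7.61, 7.79 and 7.85 in rTg4510. At 6 months it was 6.66, 6.52, 6.51 and 6.53 in WT and 7.69, 7.82, 7.72 and 7.92 in rTg4510. At 8 months it was 6.82, 7.0 and 6.68 in WT and 7.91, 7.91 and 7.86 in rTg4510. From 4 months on every rTg4510 library was above every WT library of any age. Aplp2 was 2.13 fold higher at 4 months (log2 fold change 1.09, SE 0.08, FDR = 3.07e-09), 2.35 fold higher at 6 months (1.23, SE 0.07, FDR = 2.73e-11) and 2.08 fold higher at 8 months (1.06, SE 0.08, FDR = 3.78e-09).

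The group means of Aplp2 lay in a low and a high set. The low set comprised 6-month WT (6.56 ± 0.07, n = 4), 2-month WT (6.65 ± 0.08, n = 4), 4-month WT (6.66 ± 0.10, n = 3), 2-month rTg4510 (6.75 ± 0.10, n = 4) and 8-month WT (6.83 ± 0.16, n = 3). The high set comprised rTg4510 of 4 months (7.75 ± 0.12, n = 3), of 6 months (7.79 ± 0.10, n = 4) and of 8 months (7.89 ± 0.03, n = 3). Neighbours overlapped within each set and did not overlap between them. The genotype effect was larger than at 2 months by 0.99 at 4 months (SE 0.11, FDR = 5.34e-06), 1.13 at 6 months (SE 0.10, FDR = 1.86e-07) and 0.96 at 8 months (SE 0.11, FDR = 5.50e-06). These 3 differences share the libraries of 2 months. Aplp2 was the only one of the 9 genes with a called difference from 2 months at each later age.

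Psen2, on chromosome 1 (180227004 to 180263467, minus strand), encodes presenilin 2, the catalytic subunit of those gamma-secretase complexes that reside mainly in late endosomes and lysosomes. At 2 months its log2 signal was 3.60, 3.86, 4.01 and 3.98 in WT and 4.26, 3.92, 3.86 and 4.24 in rTg4510, and the genotypes overlapped (log2 fold change 0.21, SE 0.15, FDR = 0.580). At 4 months the signal was 3.62, 3.51 and 3.58 in WT and 4.55, 3.70 and 4.34 in rTg4510. At 6 months it was 3.61, 3.48, 3.77 and 3.63 in WT and 4.63, 4.49, 4.78 and 4.51 in rTg4510. The libraries of 8 months gave 3.62, 3.98 and 3.42 in WT and 4.71, 4.65 and 4.47 in rTg4510. All rTg4510 libraries of these 3 ages were above the WT libraries of the same age, replicate 2 of 4 months by the smallest margin. Psen2 was 1.54 fold higher at 4 months (log2 fold change 0.63, SE 0.18, FDR = 0.0122), 1.97 fold higher at 6 months (0.98, SE 0.15, FDR = 3.08e-05) and 1.92 fold higher at 8 months (0.94, SE 0.18, FDR = 0.000316).

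The calls of Psen2 depended on the libraries used. At 4 months the call was lost without rTg4510 replicate 1 (log2 fold change 0.45) or replicate 4 (0.56), and when only the libraries of that age were fitted (FDR = 0.220). The libraries excluded at 4 months read 5.34 in WT and 6.39 in rTg4510, above the 4.78 that was the highest of the 28 kept. With all 32 libraries the calls at 4, 6 and 8 months were lost (FDR = 0.183, 0.0780 and 0.0989), at log2 fold changes of 0.73, 0.98 and 0.94 with an SE of 0.38. The genotype effect differed from that at 2 months by 0.77 at 6 months (SE 0.22, FDR = 0.0198), while the differences of 0.42 at 4 months (FDR = 0.344) and 0.73 at 8 months (FDR = 0.0512) did not pass. With all 32 libraries the difference at 6 months lost its call too (FDR = 0.615). By group mean Psen2 ran from 3.57 ± 0.06 in WT at 4 months (n = 3) to 4.61 ± 0.13 in rTg4510 at 8 months (n = 3), with all WT means below all rTg4510 means and every pair of neighbours overlapping.

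**Figure D3:**
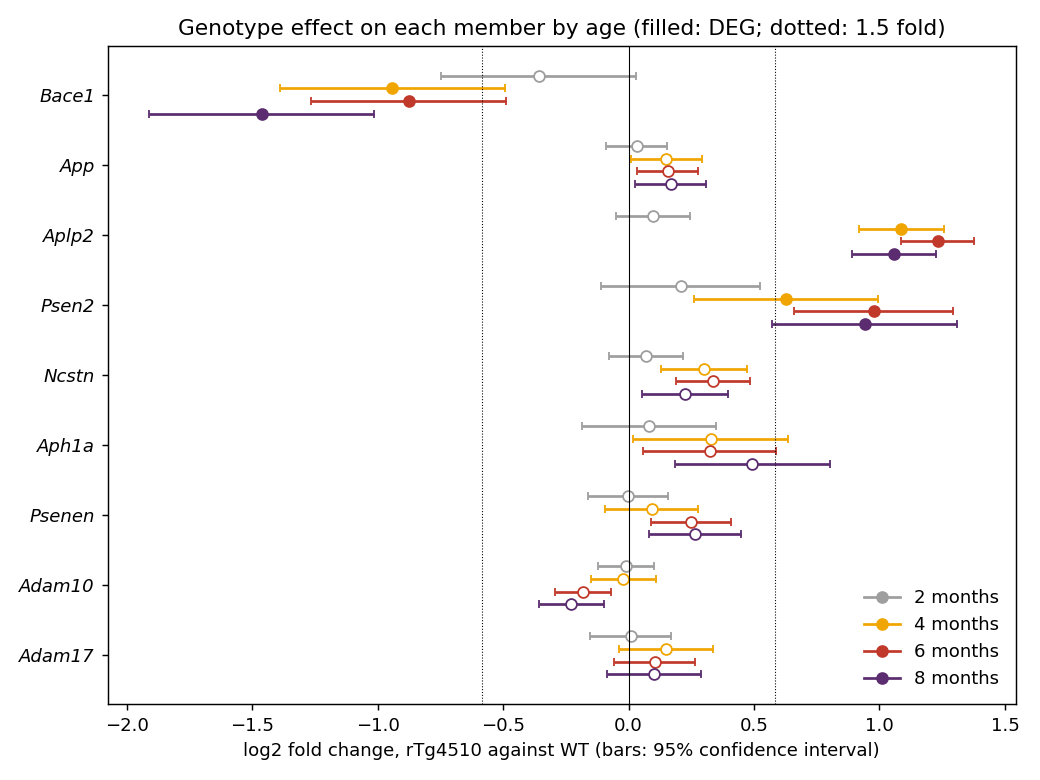
Log2 fold change of rTg4510 against WT (x axis) for each of the 9 genes (y axis) at 4 ages, with bars for the 95% confidence interval of the linear model and filled points for DEGs. Bace1 lies to the left of the dotted 1.5 fold line, and Aplp2 and Psen2 to the right of it, from 4 months on, while the points of the other 6 genes lie between the dotted lines.

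App, on chromosome 16 (84952666 to 85175255, minus strand), encodes the amyloid precursor protein itself. Its log2 signal was 7.45 to 7.79 over the 14 WT libraries and 7.52 to 7.91 over the 14 rTg4510 libraries. The log2 fold change was 0.03 at 2 months (SE 0.06), 0.15 at 4 months (SE 0.07, FDR = 0.122), 0.16 at 6 months (SE 0.06, FDR = 0.0445) and 0.17 at 8 months (SE 0.07, FDR = 0.0764). The value at 6 months passed the FDR at 1.11 fold, and the upper confidence limit was 0.31 or less at each age. The pass at 6 months was lost in 5 of 8 fits without 1 library. The libraries of the genotypes did not overlap at 4 and 8 months and overlapped at 2 and 6 months. App shares 113 exonic bases with the antisense gene Gm49227.

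The difference between the log2 signals of Aplp2 and App within a library is not changed by a log2 shift common to all its genes. Other normalizations, such as by quantiles, can change it. It was -0.97 ± 0.08 in WT and -0.91 ± 0.08 in rTg4510 at 2 months (n = 4 each), a difference of 0.06 (two-sided exact permutation test, p = 0.286). In the libraries of 6 months it was -1.01 ± 0.07 in WT and 0.07 ± 0.14 in rTg4510 (n = 4 each), a difference of 1.08 (exact permutation p = 0.0286, as low as groups of 4 permit). Over same-numbered pairs, an exact sign-flip test added after the data were seen gave p = 0.125 at 6 months, the smallest that 4 pairs allow, with the difference above 0 in 4 of 4 pairs. At 4 and 8 months the genotypes differed by 0.94 and 0.89, with an exact permutation p of 0.1, which is as low as groups of 3 permit. Aplp2 and App therefore changed unequally, and no library of the rTg4510 groups of 4, 6 or 8 months overlapped with those of WT in this measure.

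Of the other gamma-secretase subunits, nicastrin, APH1A and PEN-2, none reached 1.5 fold. Ncstn, on chromosome 1 (172066013 to 172082789, minus strand), encodes the substrate-binding subunit nicastrin and was higher by a log2 fold change of 0.30 at 4 months (SE 0.08, FDR = 0.00971), 0.34 at 6 months (SE 0.07, FDR = 0.000837) and 0.23 at 8 months (SE 0.08, FDR = 0.0490). Its libraries spanned 7.86 to 8.07 in WT and 8.06 to 8.43 in rTg4510 at 4 to 8 months and did not overlap between genotypes within any of these ages. The pass at 8 months was lost in 4 of 6 fits without 1 library (0.16 to 0.28). Within rTg4510 Ncstn was higher than at 2 months at 4 months (0.23, SE 0.08, FDR = 0.0446) and at 6 months (0.30, SE 0.07, FDR = 0.00307). Copa, on the opposite strand, overlaps 195 exonic bases or 4.91% of those of Ncstn. It was higher in rTg4510 by 0.28 at 6 months (FDR = 2.99e-05) and 0.17 at 8 months (FDR = 0.0158), both under 1.5 fold.

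Aph1a, on chromosome 3 (95893921 to 95898592, plus strand), encodes the scaffold subunit APH1A. It was higher by 0.49 on the log2 scale at 8 months (SE 0.15, 1.41 fold, FDR = 0.0164), and the values of 0.33 at 4 months (FDR = 0.123) and 0.32 at 6 months (FDR = 0.0571) did not pass. The WT libraries of 8 months were 4.68, 5.21 and 5.34, and the rTg4510 libraries 5.70, 5.47 and 5.54. Without WT replicate 1 of 8 months, the lowest of these libraries, the value was 0.29 and no longer passed the FDR (0.134), nor did it without rTg4510 replicate 1 (0.43, FDR = 0.0710) or with all 32 libraries (FDR = 0.135). Without WT replicate 3 of 8 months Aph1a was a DEG (0.63, FDR = 0.00539). Car14, a carbonic anhydrase gene on the opposite strand, overlaps 445 exonic bases or 12.9% of those of Aph1a and was not called at any age.

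Psenen, on chromosome 7 (30561865 to 30563627, minus strand), encodes PEN-2, the smallest subunit, which is needed for cleavage of the presenilin into its active form. It was higher by 0.25 at 6 months (SE 0.08, FDR = 0.0157) and 0.26 at 8 months (SE 0.09, FDR = 0.0314), and differed by 0.00 at 2 months and 0.09 at 4 months (FDR = 0.997 and 0.509). The log2 signals were 7.80, 7.75 and 7.94 in WT and 7.97, 8.13 and 8.20 in rTg4510 at 8 months, with no overlap. The FDR was missed in 3 of 8 fits without 1 library at 6 months and in 4 of 6 at 8 months. A processed copy, Psenen-ps, is listed in the table too and gave 0.27 at 6 months (SE 0.08, FDR = 0.0121) and 0.25 at 8 months (SE 0.09, FDR = 0.0474). The mean log2 signal was 11.2 for Psenen-ps and 8.05 for Psenen, and the assignment of reads between Psenen and its copy is uncertain.

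The alpha-secretases were DEGs at no age. Adam10, on chromosome 9 (70678944 to 70780229, plus strand), encodes the main constitutive alpha-secretase and was lower at 6 months (-0.18, SE 0.05, 1.13 fold, FDR = 0.0121) and 8 months (-0.23, SE 0.06, 1.17 fold, FDR = 0.00845). At 8 months the 3 WT libraries read 8.71, 8.78 and 8.90 and the 3 rTg4510 libraries 8.52, 8.57 and 8.61, without overlap. The FDR was missed in 2 of 8 fits without 1 library at 6 months and in 1 of 6 at 8 months. Over all alternatives run, the size of the Adam10 change depended on the setting. It ranged from -0.352 to -0.145 at 6 months and from -0.386 to -0.176 at 8 months. At 2 and 4 months the values were -0.01 (SE 0.05) and -0.02 (SE 0.06). Adam17, on chromosome 12 (21323509 to 21373632, minus strand), encodes the protease that releases TNF from the cell surface. Its log2 fold change was 0.01, 0.15, 0.10 and 0.10 at 2, 4, 6 and 8 months, with confidence limits between -0.15 and 0.34 and an FDR of 0.257 or more. Its sign at 2, 6 and 8 months turned under quantile normalization, and at no age did the genotypes stand apart. Iah1, on the opposite strand, overlaps 311 exonic bases or 4.35% of those of Adam17. Iah1 was a higher DEG at 4 months (0.72, FDR = 0.00573) and passed the FDR alone at 8 months (0.55, FDR = 0.0315).

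The fall of Bace1 was compared with Adam10 within each library, as the log2 signal of Bace1 less that of Adam10. The genotypes differed by -0.35 at 2 months (exact permutation p = 0.0857), -0.92 at 4 months, -0.69 at 6 months and -1.23 at 8 months. At 6 months it was -4.41 ± 0.22 in rTg4510 and -3.71 ± 0.21 in WT (n = 4 each, exact permutation p = 0.0286), and at 4 and 8 months p was again 0.1. Over same-numbered pairs the exact sign-flip p was 0.125 at 6 months and 0.25 at 8 months, the smallest that 4 and 3 pairs allow, and the difference was below 0 in each pair. Under quantile normalization the difference at 6 months was -0.43, and with all 32 libraries that at 4 months was -1.35. The libraries of the genotypes did not overlap in this measure from 4 months on.

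Counted over the 9 genes, 5 were higher and 1 lower without overlap of libraries at 4 months, 3 higher and 1 lower at 6 months, and 6 higher and 2 lower at 8 months. Of all genes, 19.1%, 18.2% and 21.2% were higher without overlap at these ages and 17.5%, 14.6% and 15.5% lower, which makes 36.6%, 32.8% and 36.7% in either direction. At 2 months 11% of all genes and 0 of the 9 stood apart. The spread within groups differed among the 9 genes. The residual SD was 0.26 for Bace1, 0.22 for Psen2 and 0.18 for Aph1a, and 0.08 to 0.11 for App, Aplp2, Ncstn, Psenen, Adam10 and Adam17, with a median of 0.23 over all genes.

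Age had no called effect on any of the 9 genes in WT. The log2 differences of 4, 6 and 8 months from 2 months in WT lay between -0.29 and 0.18, with an FDR of 0.183 or more, and 0.0484%, 0.382% and 1.27% of all genes were DEGs. The unadjusted p was under 0.05 for 0, 0 and 2 of the 9 genes at 4, 6 and 8 months (Aplp2 and Psenen), and moderated variances called 0 as well. In rTg4510, 2 of the 9 genes were DEGs at each of these ages, Aplp2 and Bace1, beside 6.39%, 13.4% and 10.5% of all genes. Aplp2 was higher than at 2 months by 1.0, 1.04 and 1.14 at 4, 6 and 8 months. Psen2 was higher by 0.53 at 6 months (SE 0.15, FDR = 0.0128) and 0.54 at 8 months (SE 0.16, FDR = 0.0224), both under 1.5 fold. The difference of the genotype effect from that at 2 months was called for Aplp2 at 4 months, for Aplp2 and Psen2 at 6 months and for Aplp2 and Bace1 at 8 months, beside 4.66%, 8.89% and 6.7% of all genes.

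Genes whose profile was most like those of the 3 DEGs were sought by Pearson's r over the 28 libraries, as a description that holds the genotype difference itself. For Bace1 these were Gm10340 (r = 0.92), a gene listed only by its Entrez number, 100040859 (0.91), and Tspan18 (0.91), a tetraspanin. For Aplp2 they were Gm6166, the phosphatidylserine-binding annexin gene Anxa5 and the beta-glucan receptor gene Clec7a (0.98 each). For Psen2 they were the transcriptional repressor gene Bcl6 (0.90), Rell1 (0.90) and Amdhd2 (0.90). The libraries of a group share age and genotype, so that the 28 are not independent points.

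Paralogs that could serve in the same complexes were looked at next. Aph1b and Aph1c, for the alternative APH1 subunits, ranged from -0.29 to 0.33 and from -0.28 to 0.71, with an FDR of 0.436 or more for Aph1b and of 0.0630 for Aph1c at 8 months. These near-identical copies may share reads. Aplp1, the neuronal homolog, was not called (-0.77 at 6 months, SE 0.55, FDR = 0.305). Adam9, a further alpha-secretase candidate, was higher from 2 months on, with 0.25 (SE 0.05, FDR = 0.00274), 0.52 (SE 0.06), 0.59 (SE 0.05) and 0.63 (SE 0.06, FDR = 4.17e-08) at the 4 ages, and was a DEG at 6 and 8 months. At 6 months the change was 1.51 fold, and the call was lost without rTg4510 replicate 4 or WT replicate 3 of that age. Bace2 was not analysed here. None of the 5 presenilin-related and other intramembrane proteases (Hm13, Sppl2a, Sppl2b, Sppl3 and Mbtps2) was a DEG at any age.

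Among 17 genes for sorting and adaptor proteins of the precursor, 0, 2, 3 and 3 passed both thresholds at the successive ages, all higher. Beside this and the following list counts stand the 9.47%, 11.3% and 10.5% of all genes that were higher DEGs at 4, 6 and 8 months, the 4.33%, 8.54% and 5.37% that were lower, and the 1.98% in either direction at 2 months. The lists are too small for a reading of their shares against these. Apbb2, an adaptor that binds the tail of the precursor, was higher by 1.24 (SE 0.12) at 4 months, 1.11 (SE 0.10) at 6 months and 1.38 (SE 0.12, 2.61 fold, FDR = 1.10e-08) at 8 months. The sorting receptor gene Sorl1 was a DEG at 6 and 8 months (0.76 and 0.67) and Gga2, for an adaptor of Golgi transport, at 4, 6 and 8 months (0.66, 0.80 and 0.86). The median over the list was 0.00, 0.16, 0.05 and 0.09 at the 4 ages. Of 12 measured genes for ADAM maturation, tetraspanin partners and inhibitors, 3 were higher at 4 months, 4 higher and 1 lower at 6 months and 2 higher at 8 months. Tspan17, a tetraspanin that binds ADAM10, was higher by 1.73 at 6 months (SE 0.27, FDR = 3.68e-05) and was not a DEG at 8 months. Timp3, an inhibitor of ADAM10 and ADAM17, was lower by a log2 fold change of -1.36 at 6 months (SE 0.41, FDR = 0.0138). This call was lost without rTg4510 replicate 3 (-1.17, FDR = 0.0521) or WT replicate 1 (-1.14, FDR = 0.0554) of 6 months, with all 32 libraries (FDR = 0.0704) and when only the groups compared were fitted (FDR = 0.0560). Rhbdf2, which encodes the iRhom2 protein that carries ADAM17 to the cell surface, was a DEG at 4, 6 and 8 months (0.74, 0.89 and 0.99), as was Timp2 (1.23, 1.34 and 1.34).

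Of 15 membrane proteins known to be cut by these proteases, 2, 4, 5 and 5 were DEGs that were higher, in the order of the ages, and none was a lower DEG, although 5, 2 and 2 passed the FDR alone as lower at 4, 6 and 8 months. Axl, a receptor for apoptotic cells, was higher by 1.19 at 2 months (SE 0.16) and by 3.25 at 6 months (SE 0.16, 9.52 fold, FDR = 1.89e-12). Cxcl16, a membrane-bound chemokine shed by ADAM10, was a DEG at all 4 ages (0.66, 2.00, 1.99 and 2.11), and Tnf at 4, 6 and 8 months (1.91, 2.07 and 2.29). Trem2 was a DEG at 4 and 6 months (0.61 and 0.65) and reached 0.58 at 8 months, just under 1.5 fold. Csf1r, Tnfrsf1a and Notch2 were DEGs at no age. The list's median was 0.11, 0.25, 0.28 and 0.28.

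Of 8 measured proteases that degrade amyloid beta, 0, 2, 1 and 1 were higher and 0, 1, 1 and 1 lower DEGs in the order of the ages. Plau, the urokinase gene, was higher by 1.501 at 4 months (SE 0.16, FDR = 3.00e-07), and Mmp9 was lower by -0.94, -1.22 and -0.78 at 4, 6 and 8 months (SE 0.17 and FDR = 5.31e-06 at 6 months). Ide, the insulin-degrading enzyme, lay between 0.05 and 0.22 and did not pass the FDR. Mmp9 is also made by neutrophils, whose markers were lower in rTg4510, with 5 of 6 DEGs at 6 months and 4 of 6 at 8 months, and the part of these cells in the value was not tested. Of 6 other ADAM genes that were measured, Adam8 was a DEG at 8 months (0.91, SE 0.28, FDR = 0.0200), a call that was lost in 3 of 6 fits without 1 library.

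**Figure D4:**
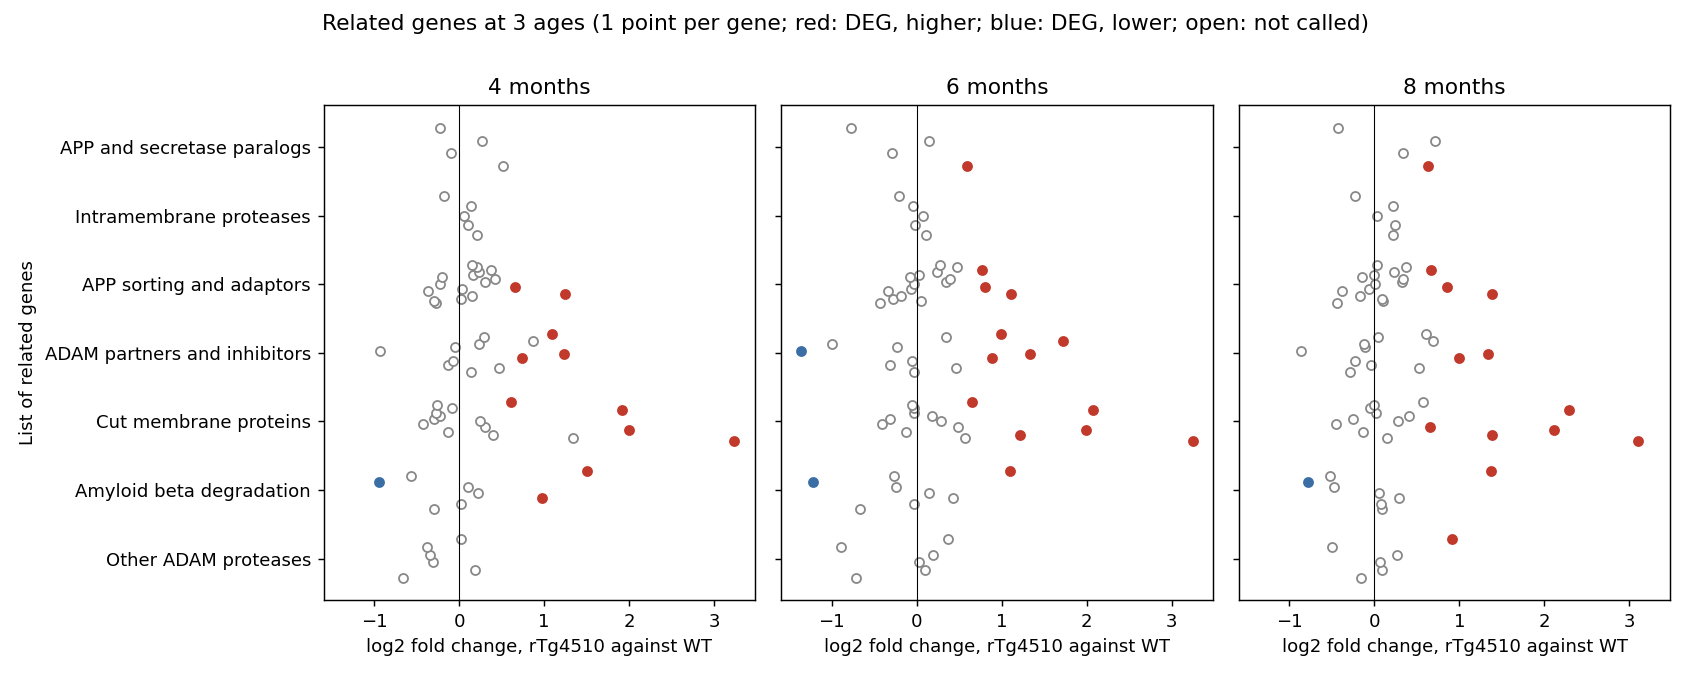
Log2 fold change of rTg4510 against WT (x axis) for 67 genes related to the secretases, in 7 lists (y axis), at 4, 6 and 8 months, with 1 point per gene, red for higher DEGs, blue for lower DEGs and open for genes not called. Most DEGs are higher, with Axl at 3.23, 3.25 and 3.1 farthest to the right, and the lower DEGs are Mmp9 at the 3 ages and Timp3 at 6 months.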

How the data were processed

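RNA of CD11b-positive cells from pooled forebrains was sequenced in 32 libraries, 4 per genotype and age. The deposited values are log2 gene signals, for which the authors added up exon reads over runs, dropped exons of low counts, summarized each gene over its exons by a robust linear fit and brought the libraries to a common median (5.63). The submitters' processing notes name GRCm38, and the aligner and annotation are not given in the sources used here. The study states an approximate read number common to all samples, but no totals per library stand in the table, so that single depths were not analysed here and the number of libraries limits the precision. The study calls the libraries of a group biological replicates from pooled forebrains, and p-values measure the spread between these preparations.

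Groups were read from the labels, and the 28 libraries that the authors kept were used. All 18588 genes were fitted, with no filter on low values, by limma (version 3.58.1, R 4.3.3) with a mean per group and each gene's own variance on 20 residual degrees of freedom. The Benjamini-Hochberg FDR was taken over all genes for each of 13 contrasts, and a DEG needed both an FDR below 0.05 and more than 1.5 fold change. The model was first tested on simulated data. Differences of signals within a library were tested by exact permutation of the genotypes, two-sided. Symbols came from RefSeq on GRCm38.p6, where 17828 Entrez numbers (95.9%) were found, and exon overlaps from GENCODE. Plots were made in matplotlib 3.10.9.

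The 9 genes, the lists of related genes and the markers were chosen with earlier results of these data known, and 2 genes of these lists are not reported here and were left out of every list count. The named genes are the 9 genes, the first list of paralogs, and per related list the DEGs with the largest increase and decrease at any age. Other list members named beside these, the genes overlapping exons and Psenen-ps were chosen after their values were seen. The 3 genes of highest Pearson's r were named for each member that was a DEG. The alternatives were a replicate block, moderated variances, quantile normalization, leaving out the 25% of genes with the lowest mean signal, all 32 libraries, fitting only the groups of a contrast, and leaving out each library in turn. An exact sign-flip test over same-numbered pairs at 6 and 8 months was added after the data were seen.

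Labels give both genotypes the same replicate numbers. Same-numbered libraries deviated together from their group means at 6 months (Pearson's r over genes between 0.131 and 0.153) and 8 months (between 0.15 and 0.291), more than other pairs did (at most 0.0913 and -0.0281). At these ages pairing by number was assumed, from the values only. The main fits and the exact permutation tests ignored this pairing, and only the replicate block and the sign-flip test used it. At 2 months (0.0649 to 0.167, other pairs at most 0.0816) and 4 months (-0.0999 to 0.124, other pairs at most 0.154) the ranges overlapped. At 2 months only the same-numbered pair of replicate 3 (0.0649) fell within the range of the other pairs. Pairing at 2 months thus remains possible, and the exact permutation tests of that age ignored it. No pairing was assumed at these 2 ages, although the replicate block covered them too.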

Additional observations from a re-analysis of the deposited data

Results flagged for a closer look

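In 2 of the 36 groups of 4 libraries examined, a library lay far from the other 3 by Dixon's criterion, which chance meets in about 1 of 20 groups. These were WT replicate 1 of 6 months for Aplp2, with a log2 signal of 6.66 above the others, and WT replicate 4 of 2 months for App, with 7.52 below them. Without the latter, the genotype effect on App at 2 months was -0.00.

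The genotype effect differed from that at 2 months, by a test of the difference itself, for Aplp2 at 4 months (0.99), 6 months (1.13) and 8 months (0.96), for Psen2 at 6 months (0.77) and for Bace1 at 8 months (-1.10) on the log2 scale. The 5 differences share the libraries of 2 months.

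Libraries that were not kept read above all 28 kept libraries for 5 of the 9 genes. Bace1 read 5.91 in WT replicate 3 of 4 months, where the highest kept library was 5.60. Aplp2 read 7.96 in rTg4510 replicate 3 of 4 months and 8.02 in rTg4510 replicate 4 of 8 months, against 7.92. For Psen2, WT replicate 3 (5.34) and rTg4510 replicate 3 (6.39) of 4 months and rTg4510 replicate 4 of 8 months (4.96) exceeded 4.78. Ncstn read 8.45 in rTg4510 replicate 3 of 4 months, against 8.43. Aph1a read 6.37 in WT replicate 3 of 4 months, and 5.77 in WT and 6.45 in rTg4510 replicate 4 of 8 months, against 5.76. Some of these libraries read below all kept ones instead. Bace1 read 3.38 in rTg4510 replicate 3 of 4 months, against 3.65 as the lowest kept value, and Psenen 6.17 in the same library, against 7.75. Aplp2 read 6.37 in WT replicate 3 of 4 months and 6.40 in WT replicate 4 of 8 months, against 6.51. Adam17 read 7.38 in WT replicate 3 of 4 months, and 7.82 in WT and 7.84 in rTg4510 replicate 4 of 8 months, against 7.99. The cause of these readings was not tested.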

How the results depend on the processing

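The calls of Aplp2 at 4, 6 and 8 months, of Bace1 at 6 and 8 months and the absence of DEGs among the 9 genes at 2 months and over age in WT held in every alternative run. Fitting only the groups of a contrast gave 1 DEG at 4 months, 2, 4 and 3 genes past the FDR alone at 4, 6 and 8 months, and 1 DEG for 4 and 1 for 6 against 2 months in rTg4510, with fewer libraries to estimate the spread. With all 32 libraries 4 genes passed the FDR at 6 months, and 1 difference from 2 months was called at 6 and 1 at 8 months, while the Bace1 less Adam10 difference at 4 months was -1.35. The filter on the 25% of genes of lowest signal removed Psen2 (15.1% of genes lie below it), which was not tested there, so that 2 DEGs remained at each later age and 1 called difference at 6 months. The replicate block left 1 at 8 months, and it changed no other call of the 9 genes. Over same-numbered pairs, the exact sign-flip test gave p = 0.125 at 6 months for Bace1 less Adam10 (-0.695) and for Aplp2 less App (1.08), the smallest p of 4 pairs. Quantile normalization gave -0.43 for Bace1 less Adam10 at 6 months. Small genotype effects varied in size over all alternatives run. At 6 months they ranged from -0.352 to -0.145 for Adam10, 0.134 to 0.305 for Psenen and 0.0693 to 0.214 for App. Leaving out single libraries gave 4 to 6 genes past the FDR at 8 months, 1 or 2 DEGs for 4 against 2 months in rTg4510 and 1 to 3 called differences at 8 months, and moved no other count over 1.5 times.

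Directions that turned were of values not called. Under quantile normalization Adam17 was -0.0165, -0.0233 and -0.0127 at 2, 6 and 8 months, and Aplp2 in WT at 4 against 2 months -0.0140. With all 32 libraries Psenen was -0.378 and Adam10 0.0153 at 4 months, and 4 against 2 months in WT gave -0.0621 for Aplp2, 0.00713 for Bace1 and 0.152 for Psen2. Over the fits without 1 library, the effect at 2 months ranged from -0.00208 to 0.0777 for App, -0.0511 to 0.0251 for Psenen, -0.0485 to 0.0165 for Adam10 and -0.0469 to 0.0398 for Adam17. Adam10 at 4 months ranged from -0.0389 to 0.00958, Aplp2 in WT at 4 against 2 months from -0.0256 to 0.0674, and Psen2 in rTg4510 at 4 against 2 months from -0.0493 to 0.377. The cause of these changes was not tested. With 3 or 4 libraries per group, small changes of Bace1, Psen2 and Aph1a, whose libraries spread most, could not be resolved.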
